A study of Mus musculus with 3 samples.

Results

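The genes described here encode the proteins of the cytosolic ribosome, the particle that translates the messenger RNAs of the nucleus. They were taken by symbol: names that begin with Rps or Rpl and go on with a number, with or without a, l, x or y, together with Rpsa, Rplp0, Rplp1 and Rplp2. Genes of the Rps6k kinases and features named as pseudogenes were left out. Of the 32285 genes in the matrices 80 met this rule, 31 of the small (40S) subunit and 49 of the large (60S) subunit. The rule used no measured value. It leaves out Rps3a1, a small subunit protein, and ribosomal proteins under other names, such as Fau and Rack1.

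The cells came from retinas of C57BL/6JRj mice aged 3 months (young), 12 months (adult) or 23 months (old). No age group carried a treatment or a targeted allele. Retinas were dissociated, enriched with magnetic beads for CD31, a surface protein of endothelial cells, and profiled by droplet sequencing of transcript 3′ ends, in which each captured transcript counts as 1 UMI. Each library pooled the retinas of 2 animals of 1 age, so no age had a replicate and no test between ages was possible. Intervals printed here are exact 95% intervals that cover counting error only, and differences between mice, libraries and ages cannot be told apart.

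A ribosome is built from a small subunit, which reads the messenger, and a large subunit, which forms the peptide bonds, and the proteins of both are needed in nearly equal number. Their mRNAs are short, long-lived and among the most abundant of any growing cell. They share a tract of pyrimidines that starts with a C at their first base, the 5′ terminal oligopyrimidine or TOP motif, through which mTOR and Larp1 control their translation together. The same tract is carried by the mRNAs of elongation factors such as Eef1a1. In the retina, blood vessel cells, glia, photoreceptors and inner neurons differ in how much protein they make, and a measured mRNA share says nothing of how much is translated.

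Of the 80 genes, 60 had an entry in the RefSeq table of start sites (GRCm38.p6). A C followed by at least 4 pyrimidines stood exactly at an annotated start in 13 of the 60 (21.7%) and in 813 of all 27025 genes of the table (3.01%). Allowing a start of the run up to 5 bases away, the counts were 28 (46.7%) and 5718 (21.2%). The sequences below are shown because they belong to genes on which the later results turn, and they run from 10 bases before the annotated start to 20 bases from it, 5′ to 3′, on the strand of the gene. Capitals mark the run from the C nearest to the start, and pyrimidines that stand directly before that C (2 in Rpl38, 2 in Rps27, 8 in Rpl14, 1 in Rpl31 and 0 in Rps27l) are left in lower case. The marked run begins at the start itself in Rpl38, Rps27 and Rpl14, 1 base after it in Rps27l and 3 bases before it in Rpl31. Another annotated start of Rps27l (chr9:66946403-66946432) has no run within 5 bases. Nor has the start shown for Rps12 or any of the 3 annotated starts of Rps19. The Rps12 window does hold a run of 11 bases farther on, which begins 8 bases after the start, and 1 of the Rps19 windows not shown holds a run of 7 that begins 6 bases after.
Rpl38 (chr11:114668570-114668599, + strand): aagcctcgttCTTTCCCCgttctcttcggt
Rps27 (chr3:90213629-90213658, − strand): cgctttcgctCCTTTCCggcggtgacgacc
Rpl14 (chr9:120571507-120571536, + strand): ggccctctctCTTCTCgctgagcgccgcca
Rps27l (chr9:66946076-66946105, + strand): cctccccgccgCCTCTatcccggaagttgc
Rpl31 (chr1:39367841-39367870, + strand): tcctcgcCTCCCCgtgacccggaagttgta
Rps19 (chr7:24884582-24884611, + strand): aatctcgcgagactcgacgcccgacttgtg
Rps12 (chr10:23787190-23787219, − strand): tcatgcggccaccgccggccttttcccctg
The match is a description of letters and not a mapped start. The 80 genes were spread over 19 chromosomes, with at most 14 on 1 of them, chromosome 7.

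The libraries held 2491, 3243 and 2751 cell barcodes (young, adult, old) with 16577026, 19977238 and 17021820 UMIs, and 1706, 1957 and 1697 cells were kept, with median UMI counts of 6355.5, 5964 and 6296. At most 3 barcodes were shared between a pair of libraries. Cells were clustered without the 80 genes, and clusters were named from marker genes. Endothelial cells (445, 428 and 410), pericytes (171, 130 and 103), smooth muscle (38, 38 and 37), Müller glia (181, 214 and 206), rods (167, 322 and 237), cones (70, 102 and 71) and bipolar cells (201, 208 and 168) had at least 30 cells in each library and were compared. The CD31 enrichment therefore left many cells of other types. Every one of the 10 listed endothelial markers was met in the endothelial clusters, 8 of 8 in pericytes and rods, 7 of 7 in cones and 5 of 6 in smooth muscle. The Müller clusters met 8 and 7 of 8, and the bipolar clusters between 3 and 8 of 10.

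The 80 genes together took a share of all UMIs that differed severalfold between classes and by less between ages. Endothelial cells stood at 11.2% in the young library, 12.3% in the adult and 12.1% in the old, and smooth muscle, the contractile layer of arterioles, at 10.5, 10.9 and 11.9%. Rods, the photoreceptors of dim light, gave 8.48, 10.5 and 9.36%. Among these 3 classes the order of rods below the vessel cells held in every library. Pericytes, the mural cells of capillaries, gave 6.61, 7.42 and 7.44%. Müller cells, the main glia of the retina, gave 7.10, 7.22 and 6.83%, so that pericytes and Müller cells exchanged places between libraries. Bipolar cells, which pass photoreceptor signals inward, gave 5.46, 5.59 and 6.17%, and cones, the photoreceptors of day vision, gave 4.43, 5.05 and 4.95%. Cones were the lowest and bipolar cells the next lowest of the 7 classes in each library.

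**Figure D1:**
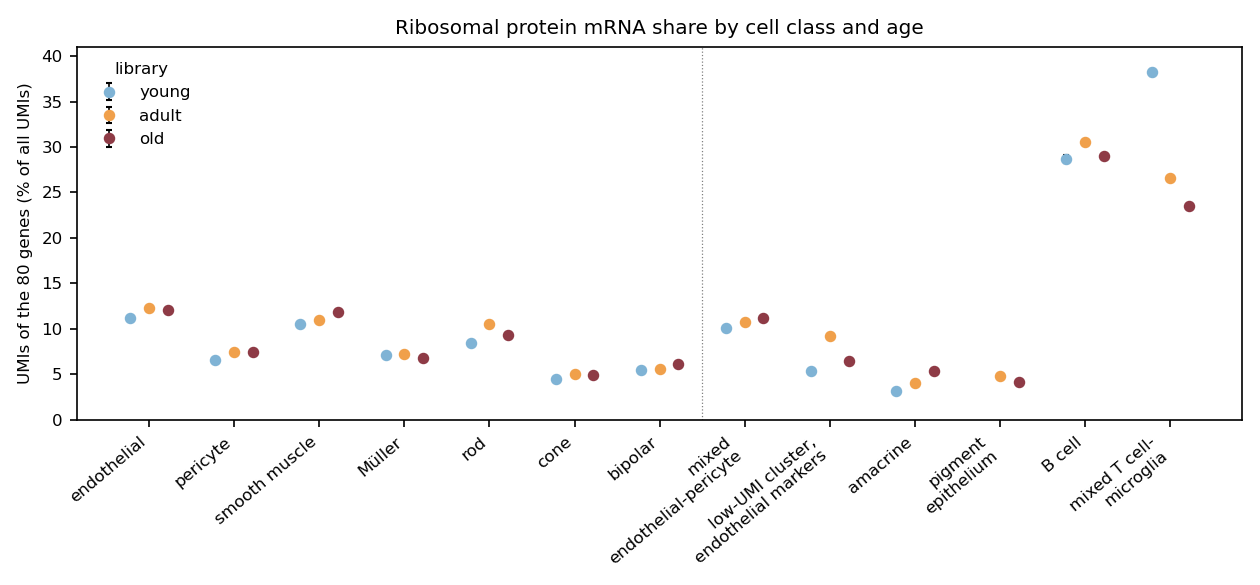
UMIs of the 80 genes as a percentage of all UMIs (y axis) in each cell class (x axis), with 1 point per library and exact 95% intervals for counting error, mostly hidden by the points; classes right of the dotted line had under 30 cells in a library or carried mixed or few markers, and a class with under 5 cells in a library has no point there. B cells lie between 28.7 and 30.6%, and cones at or under 5.05%.

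Cell classes that were too small or too mixed to compare extended this range. B cells, with 10, 77 and 57 cells, had 28.7, 30.6 and 29.0%. A mixed T cell-microglia cluster of 9, 28 and 14 cells gave 38.2, 26.5 and 23.5%. Both are blood or immune cells, and their shares lay above every class compared. Amacrine cells (18, 17 and 15) gave 3.20, 4.05 and 5.39%, and pigment epithelium, with 53 of its 61 cells in the old library, gave 4.11% there. Droplets with both endothelial and pericyte markers (311, 250 and 220 cells), whose median UMI counts were 13653, 14966.5 and 14688.5, gave 10.1, 10.8 and 11.2%. These lay between the pericyte and the endothelial share in each library. A cluster with endothelial markers but few UMIs (62, 75 and 87 cells) gave 5.35, 9.25 and 6.43%.

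The split between subunits varied little beside the total. Small subunit genes held 43.7, 43.9 and 44.0% of the UMIs of the 80 genes in endothelial cells, between 42.0 and 42.3% in Müller cells, and 45.1, 45.4 and 45.2% in rods. B cells were at 47.0, 47.0 and 46.9%. Within a class the libraries thus differed by under 1 percentage point, while rods and Müller cells stood apart in all 3. Old to young ratios of the small and the large subunit genes were 1.08 and 1.07 in endothelial cells and 0.970 and 0.957 in Müller cells. In bipolar cells they were 1.15 and 1.12, and in cones the large subunit genes had the higher ratio, 1.13 beside 1.10.

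Relative to endothelial cells in the same library, the summed level was 0.603 ± 0.0141 in pericytes (SD, n = 3 libraries), 0.937 ± 0.0486 in smooth muscle and 0.595 ± 0.0338 in Müller cells. Rods gave 0.795 ± 0.0517, bipolar cells 0.484 ± 0.0281 and cones 0.405 ± 0.00941. The cell classes come from clusters of the same cells, so these ratios are descriptions with no test. With classes taken from the markers of each single cell, smooth muscle stood at 1.03 and pericytes at 0.829. A gene was counted when its ratio to endothelial cells was at least 25% above 1, or at least 20% below it, in each of the 3 libraries. For this 77 of the 80 genes had at least 100 UMIs, and this filter was met in every class. Lower by this rule were 70 of 77 in pericytes, where 21.5% of all 8999 genes tested were lower, and 68 in Müller cells (30.1% of all genes). Cones and bipolar cells each had 76 lower, against 35.7 and 31.3% of all genes. Rods had 33, against 38.7%, a share of the 77 close to that of all genes. Smooth muscle had 4, against 28.5%.

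The median gene of these comparisons was itself off from endothelial cells in rods (log2 ratio -0.22) and smooth muscle (-0.21), and nearer to 0 in the others. Beside it, the median of the 77 genes was -0.37 in rods and -0.07 in smooth muscle. Within a single class the UMI filter was met by 8285 genes in endothelial cells, 1461 in smooth muscle and 2905 in rods. The comparisons with endothelial cells used 8686 genes for smooth muscle and 9123 for rods. Many of these genes thus passed on endothelial UMIs, which favors genes high in endothelial cells. Whether this lowered the median gene was not tested, so no direction relative to it is drawn. In pericytes the median of the 77 was -0.73 beside 0.01 for all genes, in Müller cells -0.75 beside -0.04, in cones -1.26 beside -0.08 and in bipolar cells -1.03 beside 0.13. Scaled by the median ratio of other genes, 9 of the 77 were lower and 4 higher in rods, against 33 and 30% of all genes, and 1 was lower and 9 higher in smooth muscle, against 21.6 and 20.3%. The scaled counts depend on the genes that passed the filter, so they carry the same limit.

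Few of the 77 were higher than in endothelial cells. The counts were 2 in smooth muscle, against 14.2% of all genes tested, and 1 in rods, against 23.5%. There were 0 in pericytes (18.4% of all genes), Müller cells (28.9%), cones (28.3%) and bipolar cells (35.7%). The gene higher in rods was Rpl10a, a protein of the L1 stalk, where spent tRNAs leave the ribosome, at 1078, 1307 and 1233 CPM (UMIs per 1000000 UMIs of the class and library) against 546, 637 and 628 in endothelial cells. No rod library overlapped an endothelial one, which the choice of this gene by its ratio in each library favors. Smooth muscle held more of Rpl10 and Rpl21. Rpl10, the large subunit protein that completes the site where tRNAs meet the catalytic center, stood at 1281, 1463 and 1598 CPM in smooth muscle and at 759, 780 and 846 in endothelial cells. Rpl21 stood at 2168, 2591 and 2671 CPM against 1495, 1648 and 1675. Rpl38, Rps12 and Rpl11 were among the 4 genes lower in smooth muscle. Rpl38, known for a mouse mutation that disturbs the pattern of the axial skeleton, was the farthest apart, at 1612, 1806 and 1874 CPM against 3102, 3480 and 3215.

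By mean level over libraries, the highest of the 7 classes was endothelial for 46 of the 77 genes, smooth muscle for 20 and rod for 11. The lowest was cone for 60, bipolar for 10, Müller for 6 and pericyte for 1. For all 77 the libraries of the highest and of the lowest class did not overlap, which the choice of the extreme classes favors and which held for 99.2% of all 866 genes with as many UMIs. Across classes the 5 genes with the most UMIs were led by Rps29, a zinc-binding protein of the small subunit head, which ranked first in each of the 7. It stood at 4511, 5167 and 4773 CPM in endothelial cells, 3901, 4888 and 4389 in rods, and 1684, 1835 and 1765 in cones. In B cells Rps27 was first at 10744, 11172 and 10997 CPM and Rps29 next. The method counts each captured transcript once whatever its length, so no length scaling was applied. Rpl38, Rps21 and Rps27 came next in endothelial cells, at 3266, 2984 and 2777 CPM over the 3 libraries, and the first 5 together made up 13.9% of the UMIs of all 80 genes.

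The widest range over classes was that of Rps19, a small subunit protein whose human counterpart is mutated in Diamond-Blackfan anemia. Its level was 1651, 1822 and 1862 CPM in endothelial cells and 273, 307 and 307 in cones, a ratio of means of 6.01. Müller cells stood at 681, 676 and 670 CPM and bipolar cells at 583, 577 and 692, so that these neighbors in the order overlapped. Rpl10 followed, with 5.68 between smooth muscle and cones, whose levels were 248, 242 and 274 CPM. Rps12 had 2036 CPM over all endothelial cells and 366, 471 and 393 in cones, a ratio of 4.96. Those classes were named as the highest and the lowest, so the other 5 lie between them by mean level.

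Rplp0, the base of the stalk that recruits elongation factors, reached 894, 909 and 1005 CPM in smooth muscle and 212, 229 and 265 in bipolar cells (3.98-fold). Rpl38 (3.98-fold), Rps27 (3.76-fold) and Rpl27a (3.56-fold) were highest in endothelial cells and lowest in cones. Rps23 (3.68-fold), Rps16 (3.65-fold) and Rpl12 (3.59-fold) were highest in smooth muscle and also lowest in cones. Rps23 helps the ribosome read codons accurately, and Rpl12 lies at the foot of the stalk. The plot shows the 10 widest-ranging genes, which were chosen for that range, so a wide distance between classes follows from the choice.

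**Figure D2:**
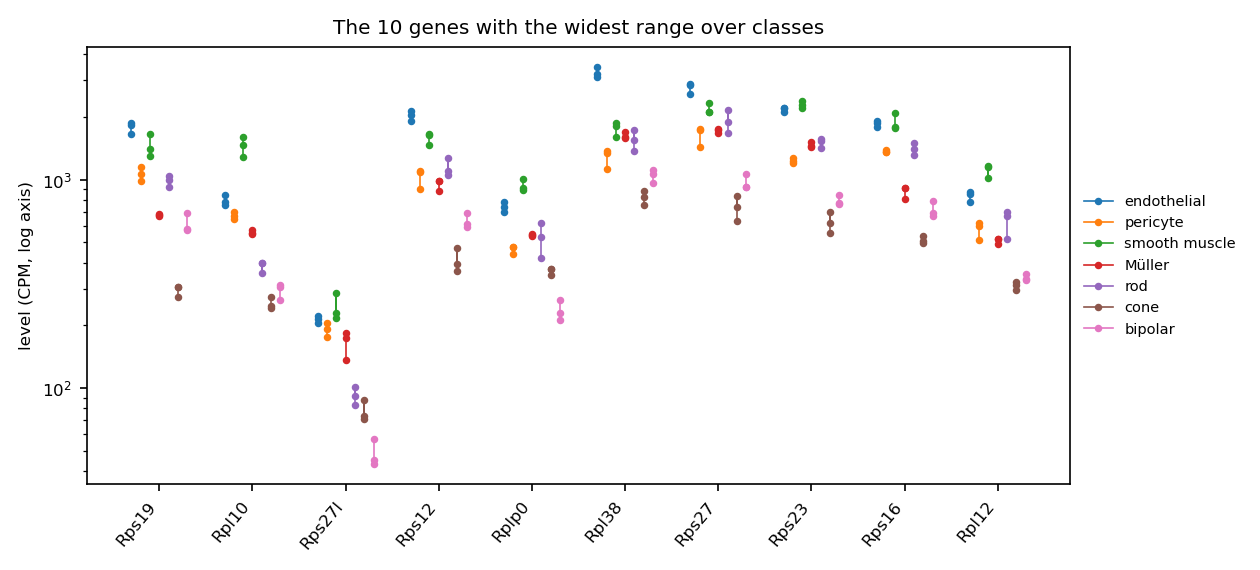
Level (CPM, log axis) of the 10 genes with the largest ratio of highest to lowest class mean (x axis), with 1 point per library joined by a line within each of 7 classes. Rps19 in cones, between 273 and 307 CPM, stands apart from every other class.

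As a share of the UMIs of the 80 genes, which leaves out the difference in total, most genes varied less. The widest was Rps27l, at 0.267% ± 0.00905 (SD, n = 3 libraries) in pericytes and 0.0840% ± 0.00804 in bipolar cells. Rpl10 ranged from 1.30% ± 0.0711 in smooth muscle to 0.411% ± 0.0651 in rods. Rpl10a ranged from 1.28% ± 0.0359 in rods to 0.508% ± 0.0194 in endothelial cells, and Rps19 from 1.499% ± 0.0391 in endothelial cells to 0.615% ± 0.00642 in cones. Rpsa, which also binds laminin outside the ribosome, had 1.34% ± 0.0125 in cones and 0.556% ± 0.0271 in Müller cells. Rpl32 varied least among the 77 genes, by 1.12-fold. The proteins are needed in nearly equal number, but these mRNA shares were not equal and their order differed by class.

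Several of the 80 genes are paralogs. Rps27l, a close relative of Rps27 and a target of p53, had 205, 214 and 223 CPM in endothelial cells, and Rps27 had 2580, 2895 and 2844. In bipolar cells Rps27l had its lowest level of the 7 classes, at 44.9, 43.1 and 57.2 CPM, beside 928, 918 and 1061 CPM of Rps27. B cells, with the most Rps27, had 134, 120 and 114 CPM of Rps27l, below endothelial cells. Both genes were lower in cones and bipolar cells than in each of the other 5 classes by mean level. Rpl3l, the striated muscle form of Rpl3, had 3 UMIs in pericytes, 1 in endothelial cells and none in any of the cells of the other 5 classes, while Rpl3 had 958, 1040 and 1028 CPM in endothelial cells. Rpl39l, a form best known from testis, had 15 UMIs over all endothelial cells, 5 in pericytes, all of them in the old library, and 1 in smooth muscle, beside 1416, 1583 and 1463 CPM of Rpl39 in endothelial cells. No UMI of Rpl10l, another testis form, was found among the 25837212 UMIs of the 7 classes, which allows a level of up to 0.116 CPM (3 counts). Rps4x and Rpl36a, both on the X chromosome, had 1241, 1347 and 1311 and 741, 811 and 771 CPM in endothelial cells.

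Processed pseudogenes that resemble these genes are many in the mouse genome, and reads that fit more than 1 gene are not counted by Cell Ranger, so levels of single genes can be understated. Of the 5 named pseudogenes left out by the rule, Rpl9-ps6 had 176, 168 and 188 UMIs and Rpl9-ps1 and Rpl36-ps4 had none.

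The age comparison asked whether the share of these mRNAs differed between young, adult and old retinas. The old to young ratio of the summed level was 1.07 in endothelial cells (interval 1.07 to 1.08), 1.13 in pericytes (1.11 to 1.14), 1.13 in smooth muscle (1.12 to 1.15), 1.13 in bipolar cells (1.12 to 1.14), 1.12 in cones (1.10 to 1.14) and 1.10 in rods (1.09 to 1.12). Müller cells gave 0.962 (0.954 to 0.970). In the smooth muscle class the 8 pericyte markers summed to 9301, 8702 and 4715 CPM, beside 35183, 32865 and 34274 in pericytes, and with classes taken from the markers of each cell the smooth muscle ratio was 1.01. The share was thus higher in the old library in 6 classes and lower in 1, by amounts beyond counting error, and without replicates the difference between the classes was not tested. A level is a share of UMIs, so it also moves when other genes take more or fewer UMIs.

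The adult library did not always lie between the others. In endothelial cells it was 1.09 times the young one, and old to adult was 0.982 (0.978 to 0.986). Pericytes had 1.12 for adult to young and 1.00 for old to adult. Rods had 1.24 (1.222 to 1.2505) for adult to young and 0.893 (0.883 to 0.902) for old to adult. In bipolar cells and smooth muscle most of the difference lay between adult and old, at 1.10 and 1.09. Smooth muscle and bipolar cells were the 2 classes of the 7 in which each older library was higher beyond counting error. In smooth muscle this held for the pooled share only. The medians over its cells were 11.7% (young), 11.0% (adult) and 12.4% (old).

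Gene by gene, the differences in endothelial cells were small. Of the 77 genes, 73 lay above 1 for old to young and the median log2 ratio was 0.11, beside 0.03 over all 8285 genes tested, of which 54.6% lay above 1. None of the 77 was 25% higher or 20% lower, which 13.9 and 9.8% of all genes tested did. These are highly counted genes whose ratios scatter little. The highest ratio was that of Rpl14, a large subunit protein, with 928, 1017 and 1098 CPM in the young, adult and old library (1.18, interval 1.13 to 1.24). Rpsa, in the small subunit, had 847, 935 and 1001 CPM (1.18). For both genes the adult value lay between the others.

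Rpl7a (1.17), Rps6 (1.17), Rps28 (1.15) and Rpl10a (1.15) were also among the 8 highest. Rps6 is the small subunit protein that the S6 kinases phosphorylate, and its level was 1005, 1062 and 1172 CPM. Of the genes named here all but Rpl10a (546, 637 and 628 CPM) were in the order young, adult, old. At the other end Rpl31 had 731, 774 and 693 CPM (0.949, interval 0.897 to 1.00), Rpl23a 829, 882 and 795 (0.958) and Rpl5, which carries 5S RNA into the ribosome and can bind Mdm2, 849, 895 and 844 (0.995). In each of these 3 the adult library was the highest, and the intervals of all 3 ratios include 1. Rpl41 (1.00), Rps15 (1.02), Rpl22 (1.02) and Rpl39 (1.03) were also among the 8 lowest.

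**Figure D3:**
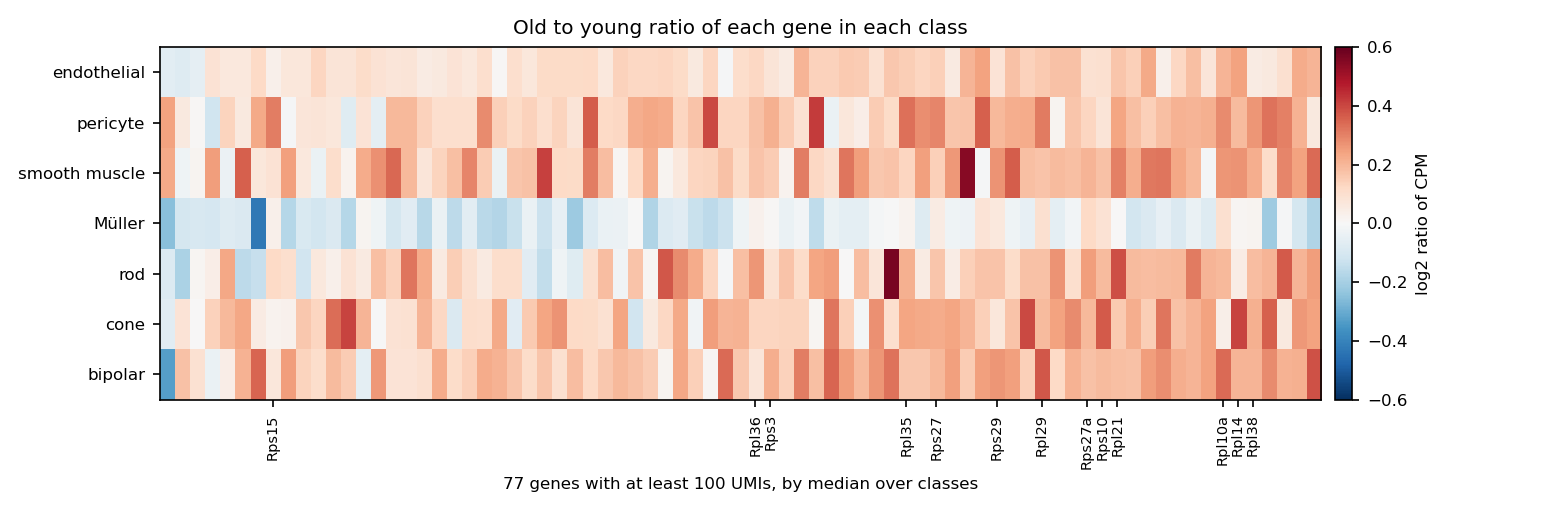
Log2 of the old to young ratio of CPM (color) for each of 77 genes (x axis, by their median over classes) in 7 cell classes (rows), with names given to the 13 genes above a ratio of 1 in every class. The Müller row is mostly below 0 and the others mostly above, with 15 of 77 genes above 1 in Müller cells and 73 in endothelial cells.

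Pericytes had 72 of 77 genes above a ratio of 1 (median log2 0.15, beside 0.07 and 59.9% above 1 over 2957 genes), and 6 were at least 25% higher, against 20.4% of all genes tested. They were Rps24, Rplp1, Rps20, Rpsa, Rpl35 and Rpl36a, all chosen for their ratio. Rps24, a small subunit protein, had 1152, 1471 and 1543 CPM (1.34, interval 1.21 to 1.48), Rplp1 of the stalk 1174, 1380 and 1545 (1.32) and Rps20 754, 865 and 970 (1.29). The lowest were Rpl26 at 0.919, Rps4x at 0.951 and Rpl7 at 0.960, and 0 genes were at least 20% lower, against 10.9% of all genes. In smooth muscle 71 of 77 lay above 1 (median log2 0.18, beside 0.08 and 60.6% above 1 over all genes) and 6 were at least 25% higher, Rpl4, Rps19, Rps25 and Rpl37a among them, against 22.7% of all 1461 genes tested. Rpl4 had 549, 490 and 730 CPM there (1.33, interval 1.09 to 1.62) and Rps19 1294, 1402 and 1662 (1.28). The lowest were Rps26 at 0.973, Rpl41 at 0.974 and Rpl27a at 0.976. None was 20% lower, against 12.9% of all genes.

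In rods 66 of 77 lay above 1 (median log2 0.15, beside 0.01 and 51.9% above 1 over 2905 genes). Rplp0 was the farthest, at 419, 533 and 622 CPM (1.48, interval 1.248 to 1.77), and Rpl21 (1.31), Rpl12 (1.29) and Rps21 (1.29) were also at least 25% higher, 4 in all, against 16.4% of all genes tested. The lowest were Rpl31 at 0.876, Rps25 at 0.896 and Rpl4 at 0.901, with none past the fold, against 16.3%. The adult library was higher than the young in 76 of the 77 genes in rods, with a median log2 of 0.30, beside 55.0% of 2905 genes and a median of 0.04. Rpl21 was among the farthest at 1173, 1605 and 1536 CPM. For Rpl21 as for the sum, the adult library was the highest. Rods were shallow, with median UMI counts of 2283, 2425.5 and 2161, and the old to young ratio was 0.996 among the 68, 135 and 79 rods with at least 1000 genes and at most 10% mitochondrial UMIs.

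Cones had 70 of 77 above 1 (median log2 0.16, beside 0.08 and 59.5% above 1 over 2734 genes). At least 25% higher were 6, against 18.7% of all genes, and at least 20% lower were 0, against 12.5%. Rps4x had 378, 445 and 502 CPM (1.33, interval 1.09 to 1.61), Rpl14 380, 449 and 504 (1.32) and Rpl8 1.32. These values rest on 70 to 102 cells per library. The lowest were Rpl11 (0.923), Rps18 (0.943) and Rpl3 (0.953). Bipolar cells had 74 of 77 above 1 (median log2 0.18, beside 0.02 and 52.5% above 1 over 5560 genes), with 7 at least 25% higher, against 14.3%. Rpl29 had 343, 392 and 444 CPM (1.30, interval 1.14 to 1.48) and Rps27l 44.9, 43.1 and 57.2 (1.27), the last on 59 and 63 UMIs with an interval of 0.879 to 1.85. Rpl23a was the only one of the 77 genes at least 20% lower in bipolar cells, at 360, 361 and 286 CPM (0.794, interval 0.686 to 0.918), where 13.1% of all genes were. Next were Rpl32 at 0.960 and Rpl26 at 0.972.

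In Müller cells 15 of 77 lay above 1, and the median log2 ratio was -0.06, beside 0.03 and 54.9% above 1 over 6469 genes. Of the 77 only Rps27l was at least 20% lower, against 11.3% of all genes tested, at 183, 174 and 136 CPM (0.743, interval 0.620 to 0.889), and 0 were 25% higher, against 14.9%. Rpl23a (505, 501 and 425 CPM, 0.840) and Rps9 (0.860) were the next lowest. At the top Rps27a, which is made as a fusion with ubiquitin, had 1419, 1556 and 1542 CPM (1.09, interval 1.03 to 1.15), Rpl29 1.07 and Rpl10a 1.07. The direction of the Müller ratio turned in 1 alternative: without cells that also held markers of another class, of which there were 29, 34 and 17, it was 1.02.

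Scaled by the median ratio of other genes, the counts at least 25% higher were 2 in pericytes, 2 in smooth muscle, 4 in rods, 3 in cones and 6 in bipolar cells. The shares of all genes were 15.7, 16.8, 15.8, 13.5 and 13.4% under the same scaling.

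Over the 7 classes, 13 genes lay above 1 in each: Rpl10a, Rpl14, Rpl21, Rpl29, Rpl35, Rpl36, Rpl38, Rps3, Rps10, Rps15, Rps27, Rps27a and Rps29. Their ratios ran from 1.00 for Rpl21 in Müller cells to 1.32 for Rpl14 in cones. Rpl38, Rpl14 and Rpl10a had the highest medians over classes among the 13, each 1.15. Another 38 genes lay above 1 in 6 of the classes and 21 in 5. These are 16.9, 49.4 and 27.3% of the 77, beside 12.4, 21.7 and 22.3% of the 866 genes with at least 100 UMIs in each class. The classes come from the same 3 libraries, so they are not independent of each other.

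Classes that hold several clusters were looked at within them. The larger endothelial cluster, of 1101 cells and led by Itm2a, Pglyrp1 and Cxcl12, had 11.5, 12.5 and 12.6%, and old to young was 1.10 (1.09 to 1.10). The smaller, of 182 cells and led by Gkn3, Sema3g and Stmn2, had 9.81, 11.1 and 10.1%, a ratio of 1.03 (1.02 to 1.04). The smaller cluster had 45, 57 and 80 cells in the 3 libraries and the lower share of ribosomal protein UMIs in each. Among the bipolar clusters the one led by Prkca and Sebox had 5.06, 5.31 and 6.01% (1.19) and the one led by Cck and Reln 5.27, 5.67 and 6.64% (1.26). The cluster led by Slit2 and Neto1 gave 1.09. The cluster led by Kcnip4 and Otor gave 1.01 and the one led by Hs3st4 and Lrp1b 1.01, both with intervals that include 1. The bipolar difference was thus not shared by all clusters at the same size, on 16 to 87 cells per cluster and library.

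The Müller class held the widest contrast within a class. Its larger cluster, of 487 cells, had 7.76, 7.74 and 7.63% of its UMIs from the 80 genes. Its smaller cluster, of 114 cells and led by Utp14b and Col2a1, had 0.803, 1.55 and 0.803%. All 77 tested genes were at least 20% lower in the smaller cluster, as were 43.9% of all genes, with ratios from 0.0838 to 0.341 and a median of 0.136, where the median over all 6469 genes was 0.925. Rpl4 had the highest of these ratios. The clusters were made from the same cells without these genes, so this is a description and not a test.

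**Figure D4:**
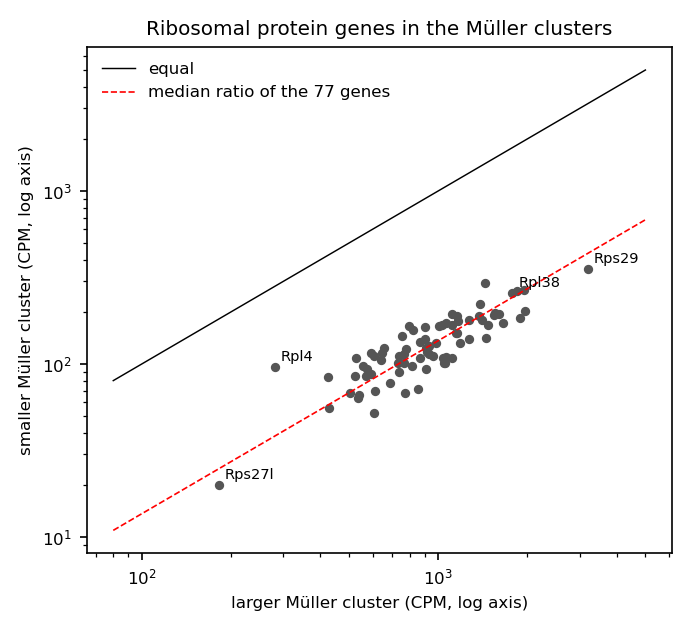
Level of 77 ribosomal protein genes (CPM, log axes) in the larger (x axis) and the smaller (y axis) of the Müller clusters, over the 3 libraries; the solid line marks equal levels and the dashed line the median ratio of 0.136. Each point lies below the solid line, and Rpl4 is the farthest above the dashed one.

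Other values moved with this contrast. Malat1, a long RNA that stays in the nucleus, had 160084 CPM in the smaller cluster and 73015 in the larger. Neat1 and Meg3, also nuclear, had 159 and 611 against 47.3 and 153. Gm26917 and Lars2 had 275 and 4386 CPM in the smaller cluster against 20.4 and 1422. Of 10 genes that tissue handling switches on quickly, 6 were at least 25% higher and 2 at least 20% lower in the smaller cluster. Their median ratio was 1.33, and 38.6 and 43.9% of all genes were that much higher and lower. The 13 mitochondrially encoded genes had a median ratio of 0.904. Of 70 nuclear genes for mitochondrial ribosomal proteins 68 were lower (median ratio 0.282), and of 18 elongation and other TOP genes 14 were lower (0.282). Of 8 Müller markers 4 were at least 20% lower in the smaller cluster and 0 were 25% higher (median ratio 0.812), beside 43.9 and 38.6% of all genes. The 4 were Apoe at 3140 CPM in the smaller and 15621 in the larger cluster, Rlbp1 at 1451 and 3502, Car14 at 408 and 531, and Glul at 8115 and 10185. Slc1a3 stood at 1131 and 1070. The median UMI count was 3602.5 in the smaller cluster and 10011 in the larger. The part of these differences in the contrast was not tested.

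The smaller cluster held 17.7% of young (exact interval 12.4 to 24.0), 15.9% of adult (11.3 to 21.5) and 23.3% of old Müller cells (17.7 to 29.7). Without it the old to young ratio of the Müller class was 0.983 (0.974 to 0.991), and within it 1.00 (0.927 to 1.08), while adult to young within it was 1.93. The medians over its cells were closer, at 0.590% (young), 0.739% (adult) and 0.693% (old), and most of the 34 adult cells lay under their pooled value of 1.55%. The old and the young library were thus nearer to each other within either cluster than over the class.

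Cells with few of these UMIs were present in other classes as well. With under 2% of the UMIs of a cell taken as low, low cells were 10.5, 13.1 and 8.74% of pericytes, 17.1, 15.0 and 24.3% of Müller cells, 12.6, 4.97 and 5.91% of rods, 7.14, 14.7 and 11.3% of cones and 12.9, 10.6 and 11.3% of bipolar cells. In endothelial cells they were 0.225, 0.701 and 1.22%. That class does not include the separate cluster with endothelial markers and few UMIs, where low cells were 32.3, 22.7 and 28.7%, whereas the Müller class includes its smaller cluster. The limit is a cut in a continuous range, with 1 to 14 cells per class and library between 1.5 and 2.5%. In these low cells Malat1 took more of the UMIs. It was 9.89, 12.8 and 7.04% in low pericytes and 5.29, 5.12 and 2.86% in the other pericytes, and 8.42, 7.15 and 7.86% in low rods beside 1.63, 1.19 and 2.16%. In bipolar cells the values were close, at 4.36 and 4.35% in the young library. Rank correlations over cells between the ribosomal protein and the Malat1 share were -0.80, -0.75 and -0.69 in the 181, 214 and 206 Müller cells, the strongest of the 7 classes in each library. They were -0.33, -0.48 and -0.45 in endothelial cells, -0.39, -0.30 and -0.36 in bipolar cells, and -0.47, -0.30 and 0.22 in smooth muscle, where the old library had the opposite sign. Shares of 1 total push each other down and cells of a library are not replicates, so no test was made.

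**Figure D5:**
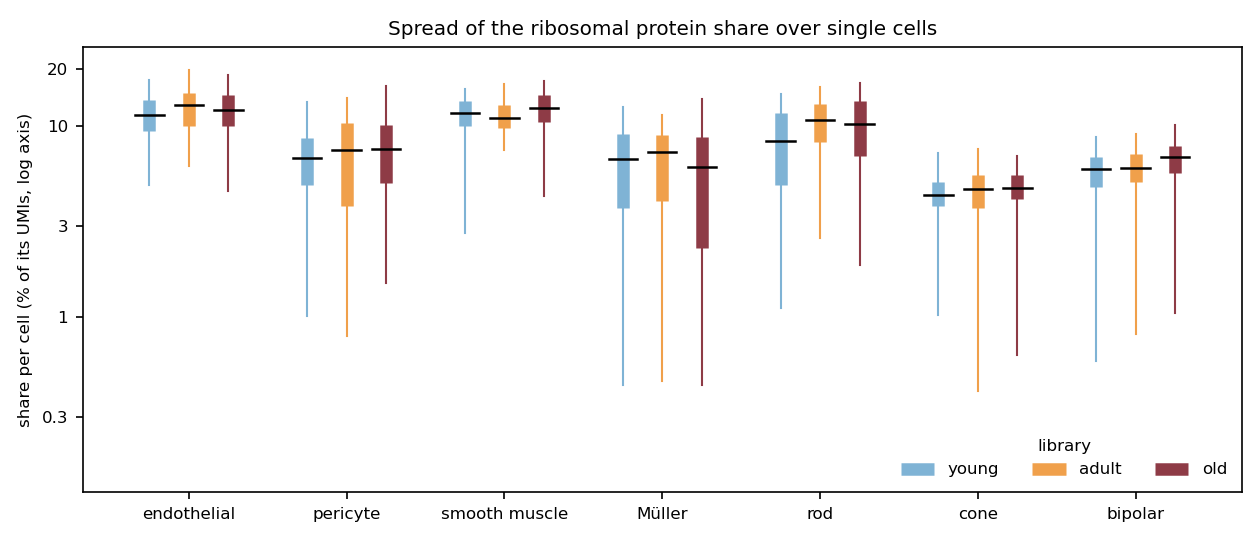
Share of the UMIs of each cell from the 80 genes (%, log axis) by class and library; black lines are medians, thick bars run from the 25th to the 75th and thin lines from the 5th to the 95th percentile of cells. Müller cells reach down to 0.44% at the 5th percentile, and endothelial cells to 4.57%.

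Barcodes outside the limits of the study on gene number and mitochondrial share lay on both sides of the kept cells, which had 9.14, 10.3 and 10.1% in the young, adult and old library. Those with fewer than 500 genes (523, 883 and 680) had 0.790, 1.17 and 1.45% of their UMIs from the 80 genes. Those over 20% mitochondrial had 2.42, 1.98 and 2.90%, and those under 1% mitochondrial (79, 86 and 134) had 2.51, 2.52 and 7.45%. Those over 6000 genes (42, 54 and 48) lay above the kept cells, at 10.9, 12.0 and 11.5%. Barcodes with few genes or a high mitochondrial share thus carried few of these transcripts in every library. A barcode can fall in more than 1 of these groups, so the groups are not separate from each other.

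Malat1 also differed between ages in the vessel cells, at 29248, 29539 and 19301 CPM in endothelial cells, 56897, 56812 and 30572 in pericytes and 44412, 47388 and 24982 in smooth muscle. Müller cells had 81382, 81367 and 81815 CPM. Rods had 22323, 13820 and 24564 CPM, lowest in the adult library, where their share of ribosomal protein UMIs was highest. The mitochondrial share was 5.66, 6.19 and 5.64% in endothelial cells and 8.55, 8.79 and 7.58% in Müller cells. Median UMI counts of endothelial cells were 5653, 6002 and 7557 and those of Müller cells 9176, 9467.5 and 6912. The 8 pericyte markers summed to 2010, 2009 and 1353 CPM in endothelial cells, and the 8 rod markers to 51.4, 94.1 and 110 CPM. The part of these differences in the age ratios was not tested. With each cell of at least 2000 UMIs thinned to that depth the ratio was 1.07 in endothelial cells and 0.979 in Müller cells. Shallower cells were left out, unequally by library: 13, 26 and 5 endothelial cells and 9, 16 and 40 Müller cells (young, adult, old).

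Other genes of translation were followed as lists. Of 18 elongation factors and other TOP mRNAs, 14 lay above 1 for old to young in endothelial cells (median log2 0.16) and 1, Eif3f of the initiation factor eIF3, was at least 25% higher (5.56%, beside 13.9% of all genes), at 317, 358 and 401 CPM (1.26). Eef1a1, which brings tRNAs to the ribosome, had 2449, 2582 and 2756 CPM (1.13). The summed level of this list was 1.06 in endothelial cells (1.04 to 1.07) and between 1.07 and 1.13 in pericytes, smooth muscle, rods, cones and bipolar cells, but 0.915 (0.891 to 0.941) in Müller cells, where 6 of 18 lay above 1. The list thus lay on the same side of 1 as the 80 genes in each of the 7 classes.

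The 7 ribosomal proteins and near relatives outside the rule were all above 1 in endothelial cells (summed ratio 1.12, interval 1.10 to 1.15), with Fau at 2225, 2605 and 2504 CPM. In Müller cells this list gave 1.05 (1.00 to 1.09), unlike the 80 genes. Of 30 ribosome biogenesis genes, 26 were counted well enough in endothelial cells, and 21 lay above 1. Nop10 of the H/ACA particle (107, 127 and 136 CPM, 1.27), Nhp2 of the same particle (1.26), Polr1c of RNA polymerase I and III (1.35) and Rrp9 (1.59) were at least 25% higher, the last 3 at 38.2 CPM or less. These 4 are 15.4% of the 26, near the 13.9% of all genes. The interval of Nop10 began at 1.11 and those of the other 3 at or near 1.

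Of 17 genes of the mTOR and TOP control, 15 were counted in endothelial cells and 7 lay above 1 (median log2 -0.09). Sesn3 and Sesn1, which restrain mTOR when amino acids are short, had 32.4, 24.6 and 19.4 CPM (0.598, interval 0.437 to 0.815) and 85.9, 79.6 and 67.6 CPM (0.787), and Mtor itself 25.4, 21.4 and 19.9 (0.786, interval 0.566 to 1.09). Those 3 were the genes at least 20% lower (20%, beside 9.8% of all genes), and none of the 15 was 25% higher, beside 13.9%. Of 78 mitochondrial ribosomal protein genes, which serve the separate ribosome of mitochondria, 76 were counted in endothelial cells, 55 lay above 1, 12 were at least 25% higher (15.8%, beside 13.9% of all genes) and 3 at least 20% lower (3.95%, beside 9.8%). Among the 12 were Mrps26 (46.8, 55.5 and 66.3 CPM) and Mrpl32 (31.8, 38.3 and 45.0), and among the 3 was Mrpl52 (127, 107 and 94.8). Their summed ratio was 1.07 in endothelial cells, 1.04 in Müller cells and 1.14 in rods.

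Genes of the response to dissociation, which tissue handling switches on quickly, differed by library. Their sum in endothelial cells was 9627, 9699 and 9044 CPM, and Fosb (887, 655 and 453 CPM), Hspa1a (469, 450 and 284) and Hspa1b (303, 277 and 93.5) were lower in the old library while Atf3 (78.9, 105 and 103) was higher. In pericytes the sum was 8624, 6654 and 6655 CPM (old to young 0.772), and in Müller cells 11100, 10778 and 10980 (0.989). The old to young ratio was above 1 in the other classes, at 1.17 in smooth muscle, 1.21 in rods, 1.21 in cones and 1.08 in bipolar cells. The sum and the single genes did not always point the same way. In bipolar cells 2 of 7 genes tested lay above 1, beside 52.5% of all genes. There 4 of the 7 were at least 20% lower, beside 13.1% of all genes (median log2 of the 7 genes -0.78). In endothelial cells 7 of 12 lay above 1, beside 54.6% of all genes, with a median log2 of 0.09 and a summed ratio of 0.939. The part of this response in the age ratios was not tested.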

How the data were processed

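Dissociated, CD31-enriched mouse retinas were profiled as 3 libraries, 1 per age. The authors deposited raw counts (UMIs for every gene in every barcode) made with Cell Ranger 6.1.2 (submitters' processing notes) on mm10; the annotation release is not given in the sources used here. Cells with 500 to 6000 genes and 1 to 20% mitochondrial UMIs were kept, and Scrublet (scanpy 1.11.5) marked 7, 17 and 16 doublets, which were left out. Cells were integrated and clustered in Seurat 5.3.0 (R 4.3.3; 2000 features, 30 components, resolution 0.5) without the 80 genes or the listed genes. Clusters were named from fixed markers: a marker counted when found in 20% of the cells at 25% of its highest cluster level, a name needed 3, and a cluster with 60% of the markers of another class was called mixed. These thresholds were set after clusters had been seen.

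UMIs were summed per class and library. Levels are CPM or percentages of these sums, with exact (Clopper-Pearson or conditional) 95% intervals from scipy 1.17.1. Genes needed 100 UMIs over the libraries compared. A gene was counted as higher from a ratio 25% above 1 and as lower from 20% below 1. With 1 library per age, no p-value was computed. Genes named are the 8 highest and lowest ratios in endothelial cells, 3 in other classes, the 5 highest levels, the 12 widest ranges, paralogs, and listed translation genes past the fold in endothelial cells; the others were chosen after their values were seen. Members and lists were chosen with earlier results of these data known. Ratios and intervals were tested on simulated data. Depth, denominators, filters, naming and membership were varied. Some genes of the set that this rule names are not reported here.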

Additional observations from a re-analysis of the deposited data

Results flagged for a closer look

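The old to young ratio of the summed level lay above 1 in endothelial cells (1.074), pericytes (1.126), smooth muscle (1.132), rods (1.103), cones (1.117) and bipolar cells (1.13) and below 1 in Müller cells (0.9622). With 1 library per age each side rests on a single pair of libraries, and the difference between the classes was not tested.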

How the results depend on the processing

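The summed old to young ratio was above 1 in 6 classes and below 1 in Müller cells; of all values recomputed, the following moved or changed direction. With scaling by the median ratio over other genes the summed old to young ratio was 1.06 in endothelial cells, 1.08 in pericytes, 1.08 in smooth muscle, 0.941 in Müller cells and 1.07 in cones. There the median log2 ratio was 0.0858 in endothelial cells, 0.0902 in pericytes, 0.111 in smooth muscle, -0.0919 in Müller cells and 0.0927 in cones. There the count past the fold higher was 2 in pericytes, 2 in smooth muscle and 3 in cones. There the count higher than in endothelial cells was 9 in smooth muscle and 4 in rods. There the count lower than in endothelial cells was 1 in smooth muscle and 9 in rods. The scaled counts against endothelial cells depend on a filter that many genes passed on endothelial UMIs, and its effect was not tested. In cells with at least 1000 genes and at most 10% mitochondrial UMIs the summed old to young ratio was 1.09 in endothelial cells, 1.15 in smooth muscle, 0.980 in Müller cells, 0.996 in rods, 1.44 in cones and 1.15 in bipolar cells; the cones were then 17 young, 36 adult and 23 old cells and the smooth muscle 27, 32 and 33, so that both fell under 30 cells in a library. Cells were also thinned to 2000 UMIs, and those with fewer were left out. The summed old to young ratio was then 1.07 in endothelial cells, 1.09 in pericytes, 1.09 in smooth muscle and 0.979 in Müller cells. There the ratio to endothelial cells was 0.539 in Müller cells and 0.383 in cones. With each cell weighted alike the summed old to young ratio was 1.06 in endothelial cells, 1.08 in smooth muscle, 0.992 in Müller cells, 1.21 in rods, 1.04 in cones and 1.17 in bipolar cells. With classes taken from the markers of each cell the summed old to young ratio was 1.09 in endothelial cells, 1.17 in pericytes, 1.01 in smooth muscle and 1.14 in rods. There the ratio to endothelial cells was 0.829 in pericytes, 1.03 in smooth muscle, 0.635 in Müller cells and 0.521 in bipolar cells. Without cells that hold markers of another class the summed old to young ratio was 1.08 in endothelial cells, 1.10 in pericytes, 1.02 in Müller cells and 1.16 in cones. There the median log2 ratio was 0.0211 in Müller cells and 0.222 in cones. There the ratio to endothelial cells was 0.372 in cones. Without mitochondrial UMIs the summed old to young ratio was 1.11 in smooth muscle and 0.952 in Müller cells. There the median log2 ratio was 0.151 in smooth muscle. There the ratio to endothelial cells was 0.431 in cones and 0.518 in bipolar cells. Without the smaller Müller cluster, an alternative chosen after seeing the data, the summed old to young ratio was 0.983 in Müller cells. There the ratio to endothelial cells was 0.651 in Müller cells. With a fold of 1.5 the count past the fold higher was 0 in pericytes, 0 in smooth muscle, 0 in rods, 0 in cones and 0 in bipolar cells. There the count past the fold lower was 0 in Müller cells and 0 in bipolar cells. There the count higher than in endothelial cells was 1 in smooth muscle. There the count lower than in endothelial cells was 46 in pericytes, 1 in smooth muscle and 12 in rods. The share of all genes past a fold of 1.5 is not given here, so the counts at that fold have no background. Directions turned for rods (0.996), on 68 young, 135 adult and 79 old cells kept by the stricter limits, for Müller cells (1.02, median log2 0.0211) and for smooth muscle against endothelial cells (1.03), and the cause was not tested. Keeping doublets, adding pseudogenes or the ribosomal proteins outside the rule (also with Rps3a1, an alternative chosen after seeing the data), and other count minimums moved none of these values beyond their intervals or counts beyond 1.5 times. Classes other than endothelial hold 37 to 322 cells per library, which limits single genes to wide intervals. No paired analysis was possible because the libraries share fewer than 2 replicate numbers and no result comes from a test.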

Other observations

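Groups of cells outside the 7 classes compared also differed between libraries. Droplets with both endothelial and pericyte markers had an old to young ratio of 1.10 (interval 1.10 to 1.11) for the summed level of the 80 genes, and all 77 genes tested lay above 1, from 1.00 to 1.18, as did 54.4% of all 9129 genes. The cluster with endothelial markers and few UMIs had an interval of 1.17 to 1.23 for old to young and a ratio of 1.73 (1.68 to 1.77) for adult to young, where 75 of 76 genes lay above 1, beside 50.9% of all 713. Its median UMI counts were 2201 (young), 1701 (adult) and 2297 (old), and Lars2 stood at 11858, 5501 and 7609 CPM, beside 2918, 1664 and 2502 CPM in endothelial cells.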
